A study of Homo sapiens with 9 samples.

Results

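The 39 genes described here code for proteins of autophagy and of the lysosome. They were chosen by name, as a fixed list, with earlier results of these data known. Their values were taken from every probe set annotated to exactly 1 gene, that gene being on the list. The list found 92 probe sets, and all 39 genes were tested among 13948 tested genes, out of 19775 genes with a probe set of their own. The values come from PANC-1 cells, an established human line from a pancreatic adenocarcinoma. The cells were seeded in medium with 10% serum and moved the next day to medium with 1% charcoal-filtered serum, which all groups shared. They then stayed for 72 h with vehicle (DMSO), with 0.1 µM TVB-3166 or with 1.0 µM TVB-3166, with 3 arrays in each group. TVB-3166 is an inhibitor of fatty acid synthase, the enzyme that makes palmitate, and the series title names inhibition of palmitate synthesis as its subject. The groups follow the sample titles, since other labels conflict with them. All 3 samples titled 1.0 µM carry 0.1 µM in their treatment label, the description of 1 sample titled 0.1 µM calls it DMSO, and the DMSO content is given as 0.05% in one field and 0.5% in another. A single cell line was used, and the labels call the samples triplicates without saying whether they were separate cultures, so the p-values measure the spread between these arrays, which may be technical.

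Autophagy delivers parts of the cell to lysosomes for breakdown. The ULK1 kinase complex starts it, a lipid kinase complex that holds BECN1 marks the membrane that will form the vesicle, and WIPI proteins read that mark. Enzymes of the ATG7 and ATG3 kind then join small proteins of the ATG8 family (LC3 and GABARAP) to the membrane lipid phosphatidylethanolamine, and cargo receptors such as SQSTM1 (p62) bind both the cargo and the ATG8 protein. The vesicle fuses with a lysosome, whose interior is kept acid by the V-ATPase proton pump and whose cathepsins and glycosidases break the contents down. The related transcription factors TFEB, TFE3 and MITF bind short promoter elements of many lysosomal genes and are held in the cytosol by the growth kinase complex mTORC1, which works at the lysosome surface.

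All values below are array signals, in arbitrary units, and all log2 changes are differences of log2(signal + 16) with their standard error (SE) from 3 arrays in each group. A gene is said to have risen or fallen where its adjusted p was under 0.05 in limma, with Benjamini-Hochberg adjustment over all 13948 tested genes. Signals of different probe sets cannot be ranked against each other. The arrays had been scaled to a common trimmed mean of 500.06, so a shift shared by all transcripts would not show, and fewer cells and less RNA per cell cannot be told apart. In signals of spiked-in bacterial control transcripts, 4 arrays (DMSO replicate 2, 0.1 µM replicates 1 and 3, and 1.0 µM replicate 2) stood above the other 5, with highest signals on the array of 35266 to 39786, against 21683 to 28035 on the other 5. Nothing in the labels names this split as a batch, and it did not follow the groups. Of the 7 epithelial and PANC-1 markers, KRT7 rose at 1.0 µM while KRT8 and KRT19 fell, and of 7 blood and immune markers PTPRC, CD14, LYZ and HLA-DRA lay below the filter. CD3E, CSF1R and ITGAM passed it and were not called, with DMSO means of 73.8, 67.4 and 82.9. ITGAM had every 1.0 µM array above DMSO (mean 127.2). Among endothelial, pancreatic, liver and prostate markers, PECAM1, CELA3A, APOA1 and KLK3 passed and were not called. Their DMSO means were 191.0, 57.0, 37.7 and 471.4. The summed signal of the 7 blood and immune markers was 295.1 to 355.1 at 1.0 µM and 246.1 to 379.4 in DMSO, and their part in the results was not tested.

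At 1.0 µM the genes moved both ways. Of the 39, 10 rose (25.6%) and 4 fell (10.3%), while 25 did not pass the test. Of all tested genes, 23.2% changed at 1.0 µM, 12.3% upward and 11.0% downward. The list was chosen with earlier results of these data known, so an excess over these shares cannot be read as a finding. No test set the shares of the 39 genes against these, and leaving out 1 array at a time gave 6 to 10 rises and 1 to 5 falls, with 6 rises without DMSO replicate 2, and 1 fall without DMSO replicate 1, DMSO replicate 2, 1.0 µM replicate 1 or 1.0 µM replicate 3 and 2 without 0.1 µM replicate 3. The median log2 change over the 39 genes was 0.13, beside 0.006 over all tested genes. The rises were SQSTM1, MAP1LC3B, ATG7, ULK1, UVRAG, WIPI1, TFE3, MCOLN1, CTSL and NEU1, and the falls were GABARAPL2, CTSB, CTSZ and ATP6V1A. At 0.1 µM 5 of the 39 genes rose (12.8%), namely SQSTM1, MAP1LC3B, ULK1, TFE3 and NEU1, and 0 fell by limma, where an unadjusted p under 0.05 was met by 11 upward and 4 downward. The background at 0.1 µM was 12.0% changed, with 6.89% upward and 5.11% downward. The median log2 change of the 39 genes at 0.1 µM was 0.06, beside -0.006 over all tested genes, and the 34 genes not called at that dose had log2 changes of -0.73 (TFEB) to 0.46 (CTSS).

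**Figure D1:**
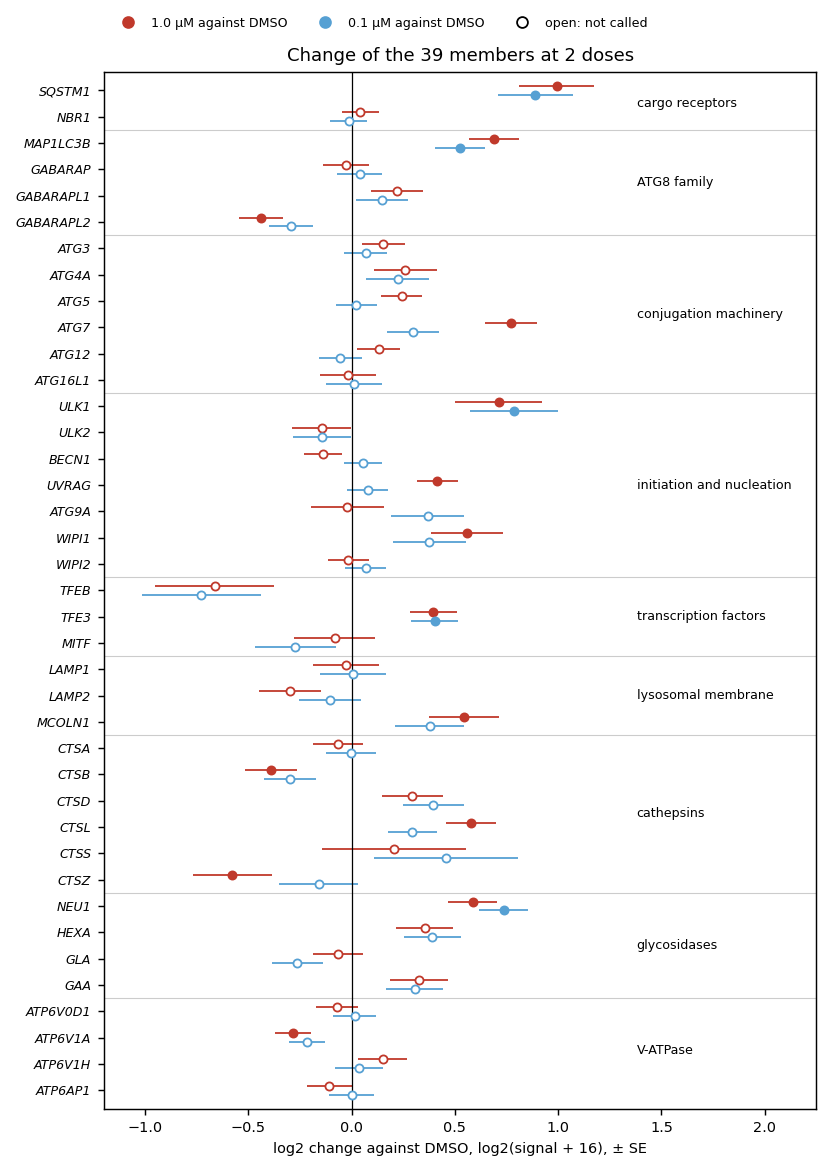
Log2 change of log2(signal + 16) for each of the 39 genes, ordered by role, at 1.0 µM and at 0.1 µM against DMSO. Each point is the fitted difference of 3 arrays against 3 with its SE as a bar, and filled points passed an adjusted p of 0.05, which holds for 14 genes at 1.0 µM and 5 at 0.1 µM.

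Among the cargo receptors, SQSTM1 rose at both doses and its relative NBR1 was not called. SQSTM1 codes for p62, which carries ubiquitin-tagged cargo into the forming vesicle and is itself degraded there. Its signals were 8475, 9533 and 9748 in DMSO, 18797, 13445 and 19887 at 0.1 µM and 15063, 23665 and 17435 at 1.0 µM. All 6 treated arrays lay above all 3 DMSO arrays, and the 2 treated groups overlapped. In limma this was a log2 change of 0.99 ± 0.18 (adjusted p = 0.00184) at 1.0 µM and 0.89 ± 0.18 (adjusted p = 0.00712) at 0.1 µM, with ratios of mean signals of 2.02 and 1.88. SQSTM1 has 5 probe sets, and all 5 were higher at 1.0 µM in a fit over 32768 probe sets, with log2 changes of 0.59 to 2.18. The largest change was on a probe set with signals of 1353, 1654 and 1901 in DMSO, 4708, 4093 and 6276 at 0.1 µM and 6704, 8049 and 7449 at 1.0 µM, where every treated array was more than 2 times the highest DMSO array. NBR1, a second receptor of ubiquitin-tagged cargo, had signals of 2078, 2059 and 1904 in DMSO, 2119, 2029 and 1841 at 0.1 µM and 1969, 2146 and 2101 at 1.0 µM, a log2 change at 1.0 µM of 0.04 (adjusted p = 0.801), and groups that overlapped.

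In the ATG8 family, MAP1LC3B rose and GABARAPL2 fell, and GABARAP and GABARAPL1 were not called. MAP1LC3B codes for LC3B, the ATG8 protein most used to mark autophagosomes. It had signals of 4891, 5741 and 4650.3 in DMSO, 7582, 6406 and 8048 at 0.1 µM and 7993, 9087 and 7589 at 1.0 µM. Every treated array was above every DMSO array. The log2 change was 0.69 ± 0.12 (adjusted p = 0.00143) at 1.0 µM and 0.53 ± 0.12 (adjusted p = 0.0144) at 0.1 µM. A second probe set for the gene gave 4286, 4514 and 4201 in DMSO, 6981, 5872 and 6957 at 0.1 µM and 7265, 7347 and 7239 at 1.0 µM, with a log2 change at 1.0 µM of 0.75 (adjusted p = 0.000254). At 0.1 µM the call on the first probe set ended without DMSO replicate 1, DMSO replicate 3, 0.1 µM replicate 1 or 0.1 µM replicate 3, with log2 changes of 0.46 to 0.50 and adjusted p-values of 0.0578 to 0.0831. GABARAPL2, also known as GATE-16, codes for an ATG8 protein that also acts in transport within the Golgi. Its signals were 6216, 7116 and 6179 in DMSO, 5797, 5469 and 4657 at 0.1 µM and 4703, 5033 and 4608 at 1.0 µM, so that every treated array lay below every DMSO array. Its log2 change was -0.44 ± 0.11 (adjusted p = 0.0101) at 1.0 µM and -0.29 (adjusted p = 0.0973) at 0.1 µM, where it was not called. GABARAP had a log2 change at 1.0 µM of -0.03 (adjusted p = 0.91), with overlapping arrays.

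GABARAPL1 gave a mixed reading. The probe set with its highest mean signal had 379, 375 and 319 in DMSO, 391, 414 and 387 at 0.1 µM and 439.8, 373 and 445 at 1.0 µM, with a log2 change at 1.0 µM of 0.22 (adjusted p = 0.243). Its other probe set had 291, 339 and 291 in DMSO, 343, 342 and 379 at 0.1 µM and 367, 459 and 463 at 1.0 µM, with a log2 change at 1.0 µM of 0.46 (adjusted p = 0.0309) in the fit over all probe sets. On the second probe set all treated arrays lay above all DMSO arrays, and on the first 1 array at 1.0 µM fell within the DMSO range. MAP1LC3B and GABARAPL1 each have a closely similar gene copy in the genome (MAP1LC3B2 and GABARAPL3), and whether those transcripts add to these signals was not tested.

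Of 6 genes of the conjugation machinery, ATG7 rose at 1.0 µM and 5 were not called. ATG7 codes for the E1-like enzyme that activates both ATG8 proteins and ATG12. The ATG7 signals were 651, 618 and 554 in DMSO, 645, 842 and 772 at 0.1 µM and 1159, 926 and 1068 at 1.0 µM. The 3 arrays at 1.0 µM lay above all arrays of the other 2 groups, and the 0.1 µM arrays overlapped DMSO. This gave a log2 change of 0.77 ± 0.13 (adjusted p = 0.000928) at 1.0 µM and 0.30 (adjusted p = 0.162) at 0.1 µM. The 4 ATG7 probe sets had log2 changes at 1.0 µM of -0.02 to 0.93, and 2 of them were called. The probe set with 0.93 had 483, 517 and 447 in DMSO, 754, 683 and 730 at 0.1 µM and 777, 1046 and 992 at 1.0 µM. All its treated arrays lay above DMSO, and it was also called at 0.1 µM (0.57, adjusted p = 0.0145) in the fit over all probe sets. The E2-like enzyme ATG3 had a log2 change of 0.15 (adjusted p = 0.337), the protease ATG4A one of 0.26 (adjusted p = 0.263), and ATG12, which is joined to ATG5, one of 0.13 (adjusted p = 0.43). ATG16L1, which brings the ATG12-ATG5 pair to the membrane, gave -0.02 (adjusted p = 0.95). ATG5 had 4026, 4174 and 3761 in DMSO, 4275, 3666 and 4229 at 0.1 µM and 4579, 5139.6 and 4453 at 1.0 µM, with every 1.0 µM array above every DMSO array, and a log2 change of 0.24 (adjusted p = 0.0974), which did not pass the test.

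Initiation and nucleation genes held 3 rises at 1.0 µM, ULK1, UVRAG and WIPI1, and 4 genes that were not called. Their median log2 change at 1.0 µM was -0.02, since the other 4 lay below 0 on the probe sets that stand for them. ULK1 codes for the kinase that starts autophagy and that mTORC1 holds inactive. ULK1 signals were 298, 429.8 and 531 in DMSO, 614, 664 and 899 at 0.1 µM and 594, 851 and 618 at 1.0 µM. All treated arrays exceeded all DMSO arrays, and the DMSO arrays spread from 297.9 to 530.8. Fitted over all arrays, the log2 change was 0.71 ± 0.21 (adjusted p = 0.0296) at 1.0 µM and 0.79 ± 0.21 (adjusted p = 0.0309) at 0.1 µM. The call at 1.0 µM ended without DMSO replicate 1, DMSO replicate 2, 1.0 µM replicate 2 or 1.0 µM replicate 3, with log2 changes of 0.49 to 0.78 and adjusted p-values of 0.0501 to 0.11. At 0.1 µM it ended without DMSO replicate 1, DMSO replicate 2 or 0.1 µM replicate 3, with log2 changes of 0.57 to 0.82 and adjusted p-values of 0.0635 to 0.148.

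UVRAG codes for a partner of BECN1 in the lipid kinase complex. It had 658, 659.6 and 754 in DMSO, 730.1, 720.0 and 736 at 0.1 µM and 862, 993 and 921 at 1.0 µM. The 1.0 µM arrays stood above all 6 others, while the 0.1 µM arrays overlapped DMSO. The fitted log2 change was 0.41 ± 0.10 (adjusted p = 0.0103) at 1.0 µM and 0.08 (adjusted p = 0.691) at 0.1 µM. WIPI1 codes for a reader of the phosphoinositide mark on the forming membrane. On the probe set with its highest mean signal it had 966, 808 and 715 in DMSO, 953, 1171 and 1109.7 at 0.1 µM and 1554, 912 and 1282 at 1.0 µM. One 1.0 µM array there fell within the DMSO range, and the log2 change was 0.56 ± 0.18 (adjusted p = 0.0379). That call ended without DMSO replicate 2, DMSO replicate 3, 0.1 µM replicate 3, 1.0 µM replicate 1 or 1.0 µM replicate 3, with log2 changes of 0.39 to 0.56 and adjusted p-values of 0.0554 to 0.148. On its other probe set the signals were 609, 614 and 637 in DMSO, 957, 916 and 885 at 0.1 µM and 888, 1156 and 1119.5 at 1.0 µM, with all treated arrays above DMSO and log2 changes of 0.74 (adjusted p = 0.000683) at 1.0 µM and 0.56 (adjusted p = 0.00901) at 0.1 µM. The remaining genes had log2 changes at 1.0 µM of -0.14 (adjusted p = 0.334) for BECN1, -0.15 (adjusted p = 0.521) for the second kinase ULK2, -0.02 (adjusted p = 0.938) for WIPI2 and -0.02 (adjusted p = 0.955) for the membrane protein ATG9A. A second BECN1 probe set went the other way, with 0.24 (adjusted p = 0.116) at 1.0 µM in the fit over all probe sets. On it every treated array lay above every DMSO array, so the sign for BECN1 depends on the probe set.

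Of the 3 transcription factors, TFE3 rose at both doses, and TFEB and MITF were not called on the probe sets that stand for them. TFE3 had 1526, 1548 and 1875 in DMSO, 2262, 1979.6 and 2303 at 0.1 µM and 2424, 2155 and 1944 at 1.0 µM. Every treated array was above every DMSO array, with a log2 change of 0.40 ± 0.11 (adjusted p = 0.026) at 1.0 µM and 0.40 ± 0.11 (adjusted p = 0.0397) at 0.1 µM. Its 4 probe sets had log2 changes of 0.17 to 0.65 at 1.0 µM. The 1.0 µM call ended without DMSO replicate 1, DMSO replicate 2 or 1.0 µM replicate 1, with log2 changes of 0.32 to 0.35 and adjusted p-values of 0.0892 to 0.108. The 0.1 µM call ended without DMSO replicate 1, DMSO replicate 2, 0.1 µM replicate 1 or 0.1 µM replicate 3, with log2 changes of 0.35 to 0.38 and adjusted p-values of 0.121 to 0.16. In the fit over all probe sets, 2 of the 4 TFE3 probe sets were called at 1.0 µM and 0 at 0.1 µM. The probe set that stands for TFE3 had an adjusted p of 0.0552 at 0.1 µM in that fit.

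TFEB, the factor best known for lysosomal genes, is given in full as a choice made after its values were seen. Its signals were 488, 372 and 442 in DMSO, 159, 446 and 228 at 0.1 µM and 316, 210.1 and 285 at 1.0 µM. All 1.0 µM arrays lay below all DMSO arrays, and 1 of the 3 arrays at 0.1 µM fell within the DMSO range. The log2 change was -0.66 ± 0.29 (adjusted p = 0.122) at 1.0 µM and -0.73 ± 0.29 (adjusted p = 0.131) at 0.1 µM, and neither passed the test. Without 0.1 µM replicate 2, the array within the DMSO range, TFEB was called lower, with -1.12 (adjusted p = 0.00615) at 0.1 µM and an adjusted p of 0.0262 at 1.0 µM. That array is the only 0.1 µM array with lower spiked-in control signal. On arrays with higher and lower control signal, mean TFEB signals were 372.5 and 465.0 in DMSO. They were 193.3 and 446.0 at 0.1 µM, and 210.1 and 300.1 at 1.0 µM. The part of the control level in the 0.1 µM call was not tested. MITF, the factor of pigment cells and osteoclasts, had 458, 294 and 338 in DMSO, 342, 341 and 216 at 0.1 µM and 332, 338 and 340.3 at 1.0 µM on the probe set with its highest mean signal, with a log2 change at 1.0 µM of -0.08 (adjusted p = 0.821). A second MITF probe set had 423, 461 and 330.2 in DMSO, 302, 251 and 254 at 0.1 µM and 250.3, 272 and 284 at 1.0 µM, with every treated array below DMSO and a log2 change of -0.55 (adjusted p = 0.0229) at 1.0 µM and -0.55 (adjusted p = 0.0399) at 0.1 µM. The 2 MITF probe sets did not give the same call.

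**Figure D2:**
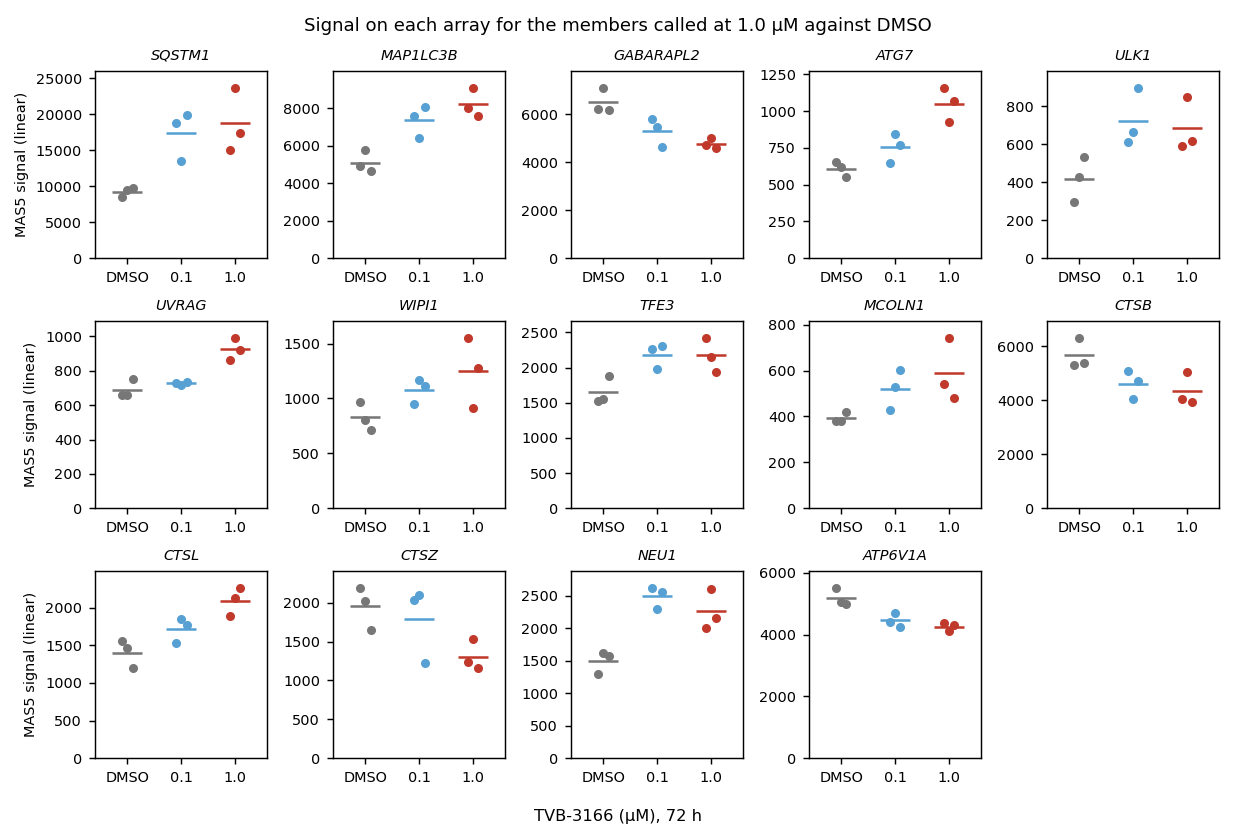
Signal on each of the 9 arrays for the 14 genes called at 1.0 µM, in arbitrary units on linear axes that start at 0, by dose. Points are single arrays and horizontal lines are group means. Of these genes only WIPI1 has a 1.0 µM array within the DMSO range.

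Lysosomal membrane genes included 1 rise. MCOLN1 codes for mucolipin, a channel that lets calcium out of lysosomes. It had 378, 380.3 and 419 in DMSO, 426, 528 and 604 at 0.1 µM and 542, 743 and 482 at 1.0 µM. All treated arrays were above all DMSO arrays, and 1.0 µM replicate 2 was the highest. Its log2 change was 0.54 ± 0.17 (adjusted p = 0.0349) at 1.0 µM and 0.38 (adjusted p = 0.182) at 0.1 µM. The 1.0 µM call ended without DMSO replicate 1, DMSO replicate 2, DMSO replicate 3, 1.0 µM replicate 1 or 1.0 µM replicate 2, with log2 changes of 0.37 to 0.59 and adjusted p-values of 0.0552 to 0.107. LAMP1 and LAMP2, the abundant glycoproteins that line the lysosome, had log2 changes of -0.03 (adjusted p = 0.933) and -0.30 (adjusted p = 0.181) at 1.0 µM. Without 1.0 µM replicate 2, LAMP2 was called lower (-0.47, adjusted p = 0.0169). That array is the only 1.0 µM array with higher spiked-in control signal. On arrays with lower and higher control signal, mean LAMP2 signals were 5413.3 and 7713.3 at 1.0 µM. In DMSO they were 7192.6 and 8133.3. Within the arrays with lower control signal, the LAMP2 change at 1.0 µM was -0.41. These LAMP2 values come from the probe set with its highest mean signal. Its 4 tested probe sets had log2 changes at 1.0 µM of -0.32 to 0.17, and none was called in the fit over all probe sets. On the probe set with 0.17 the 1.0 µM arrays had 6860, 4506 and 6725, so replicate 2 was the lowest there.

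The promoters of these genes are shown because the TFEB family is known to bind a palindrome with CACGTG at its core, named the CLEAR element in lysosomal genes. RefSeq promoter windows of build GRCh38.p14 were matched for 32 of the 39 genes, and those for ATP6V1A, ATP6V1H, HEXA, CTSB, CTSS, UVRAG and LAMP2 were not used here. The 250 bases before the start are printed 5′ to 3′ on the gene's own strand, with CACGTG in capitals, for MCOLN1 (chr19:7522374-7522623, plus strand) and NEU1 (chr6:31862822-31863071, minus strand), which rose at 1.0 µM, and for GAA (chr17:80101331-80101580, plus strand), which was not called.
MCOLN1: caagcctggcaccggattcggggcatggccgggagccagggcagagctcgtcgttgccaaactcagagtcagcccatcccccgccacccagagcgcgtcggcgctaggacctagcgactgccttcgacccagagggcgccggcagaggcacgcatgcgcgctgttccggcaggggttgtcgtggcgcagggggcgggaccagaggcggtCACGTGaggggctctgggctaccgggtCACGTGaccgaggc
NEU1: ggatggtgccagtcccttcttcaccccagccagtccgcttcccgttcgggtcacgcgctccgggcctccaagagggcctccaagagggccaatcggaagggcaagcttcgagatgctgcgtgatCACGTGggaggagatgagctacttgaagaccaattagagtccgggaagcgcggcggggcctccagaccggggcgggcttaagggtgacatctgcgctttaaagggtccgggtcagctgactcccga
GAA: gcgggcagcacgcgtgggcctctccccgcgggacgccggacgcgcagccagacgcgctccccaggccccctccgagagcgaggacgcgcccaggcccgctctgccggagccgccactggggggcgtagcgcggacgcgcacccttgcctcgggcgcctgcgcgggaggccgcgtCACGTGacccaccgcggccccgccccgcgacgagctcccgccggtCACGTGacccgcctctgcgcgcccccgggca
The first base of CACGTG lies 41 and 14 bases before the start in MCOLN1, 126 bases in NEU1, and 76 and 31 bases in GAA. LAMP1, which was not called, holds it 5 times, starting 192, 176, 159, 142 and 28 bases before the start.

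CACGTG, searched on both strands, is in the windows of 8 of the 32 genes (25.0%), beside 7.73% of 27305 genes with a window and 11.0% of 11219 tested ones. The longer TCACGTGA, which contains it, is in 5 of 32 (15.6%), beside 1.04% of all and 1.91% of tested genes, and the palindrome longer by 1 base on each side (G before, C after) is in GAA and MCOLN1 (6.25%), beside 0.374% and 0.731%. Of the 8 genes with CACGTG (ATG3, ATP6V0D1, CTSA, CTSD, GAA, LAMP1, MCOLN1 and NEU1), 2 rose at 1.0 µM and 6 were not called. Of the 24 genes whose windows lack it, 7 rose, 2 fell and 15 were not called. TGACNNNGC, the core of the antioxidant response element bound by NRF2, is in 8 windows (25.0%), beside 13.2% of all and 15.9% of tested genes. Of these genes, MAP1LC3B (46 bases before the start) and CTSL (23 bases) rose at 1.0 µM, and CTSZ (208 bases) fell. The rest, ATP6V0D1, CTSA, CTSD, GAA and LAMP1, were not called. TGATGCAA, a core bound by ATF4 with CEBP partners, is in 0 windows of the 32 genes, beside 0.967% of all genes. These matches are letters in a window of sequence and were not tested as binding sites.

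The cathepsins, proteases of the lysosome, went in both directions, with 1 rise (CTSL) and 2 falls (CTSB and CTSZ) among 6 genes at 1.0 µM and 0 calls at 0.1 µM, where limma gave an unadjusted p under 0.05 for 2 genes upward and 1 downward. CTSL signals were 1550.4, 1459.8 and 1194 in DMSO, 1529, 1848 and 1775 at 0.1 µM and 1889, 2125 and 2263 at 1.0 µM. The 1.0 µM arrays were above all others, and 0.1 µM overlapped DMSO. In limma the log2 change was 0.58 ± 0.12 (adjusted p = 0.00417) at 1.0 µM and 0.29 (adjusted p = 0.142) at 0.1 µM. CTSL and CTSV are close in sequence, and whether this probe set also binds CTSV transcripts was not tested. CTSB had 5320.3, 6319.6 and 5379.6 in DMSO, 5070.4, 4058 and 4714 at 0.1 µM and 4044, 5049 and 3928 at 1.0 µM. Every treated array lay below every DMSO array, with a log2 change of -0.39 ± 0.12 (adjusted p = 0.0408) at 1.0 µM and -0.30 (adjusted p = 0.154) at 0.1 µM. The call ended without DMSO replicate 1, DMSO replicate 2, DMSO replicate 3, 0.1 µM replicate 3, 1.0 µM replicate 1 or 1.0 µM replicate 3, with log2 changes of -0.43 to -0.31 and adjusted p-values of 0.0595 to 0.156.

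CTSB has 5 probe sets, and all 5 had treated arrays below every DMSO array at both doses. Their log2 changes at 1.0 µM were -0.86 to -0.34, and 4 of the 5 were called in the fit over all probe sets, as were 3 of 5 at 0.1 µM. The probe set that stands for the gene had an adjusted p of 0.0539 at 1.0 µM in that fit. CTSZ had 2191, 2019.8 and 1653 in DMSO, 2029.7, 2097 and 1228 at 0.1 µM and 1231, 1531 and 1155 at 1.0 µM. Its 1.0 µM arrays lay below DMSO, the 0.1 µM arrays overlapped it, and the log2 change was -0.58 ± 0.19 (adjusted p = 0.0461) at 1.0 µM and -0.16 (adjusted p = 0.665) at 0.1 µM. The CTSZ call ended without DMSO replicate 1, DMSO replicate 2, 1.0 µM replicate 1 or 1.0 µM replicate 3, with log2 changes of -0.55 to -0.49 and adjusted p-values of 0.116 to 0.151. The aspartic protease CTSD had 5169, 5729.5 and 7034 in DMSO, 8548, 6440.4 and 8628 at 0.1 µM and 6554, 8282 and 7085 at 1.0 µM, with a log2 change of 0.29 (adjusted p = 0.186) at 1.0 µM and 0.40 (adjusted p = 0.113) at 0.1 µM. Without 0.1 µM replicate 2, CTSD was called higher at 0.1 µM (0.53, adjusted p = 0.034). That array is the only 0.1 µM array with lower spiked-in control signal. CTSD had 6440.4 on it and a mean of 8587.8 on the other 0.1 µM arrays. In DMSO the means were 6101.8 with lower and 5729.5 with higher control signal. CTSA, a carboxypeptidase that also protects NEU1, gave -0.07 (adjusted p = 0.756). CTSS, a protease of antigen-presenting cells, had signals near the filter of 38.95 on some arrays, 36.1, 128 and 47.2 in DMSO, 102, 72.0 and 102 at 0.1 µM and 62.4, 67.7 and 94.2 at 1.0 µM, and a log2 change of 0.20 (adjusted p = 0.743).

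**Figure D3:**
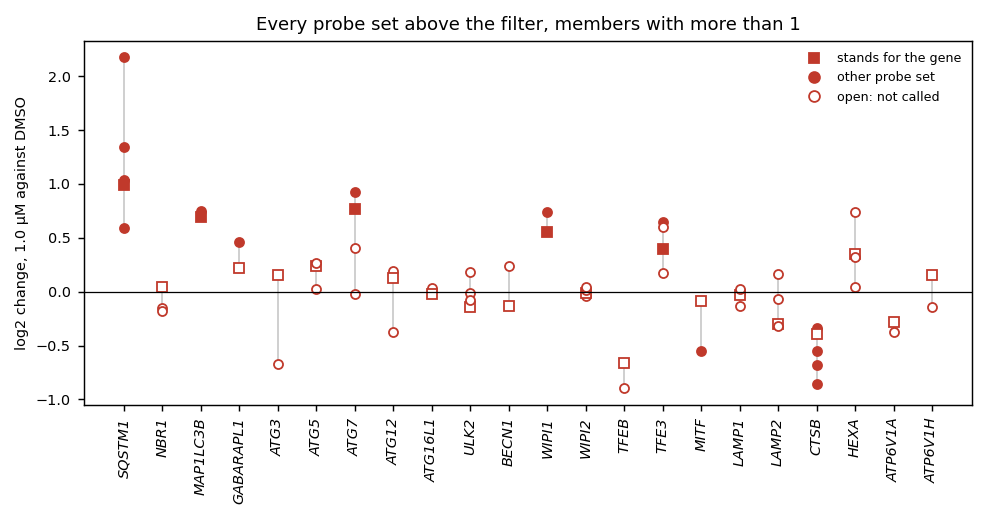
Log2 change at 1.0 µM against DMSO of each tested probe set of the genes with several probe sets, from the fit over 32768 probe sets. Squares mark the probe set that stands for the gene, filled symbols passed an adjusted p of 0.05, and the 5 CTSB probe sets lie between -0.86 and -0.34 while the 5 SQSTM1 probe sets lie between 0.59 and 2.18.

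Among the glycosidases, NEU1 rose at both doses and HEXA, GLA and GAA were not called. NEU1 codes for the lysosomal sialidase. Its signals were 1300.1, 1613 and 1567 in DMSO, 2619, 2297 and 2560.3 at 0.1 µM and 1998, 2608 and 2159 at 1.0 µM. All 6 treated arrays exceeded all 3 DMSO arrays. NEU1 had a log2 change of 0.59 ± 0.12 (adjusted p = 0.00375) at 1.0 µM and 0.74 ± 0.12 (adjusted p = 0.00164) at 0.1 µM. HEXA, a subunit of beta-hexosaminidase, had 2243, 2460.2 and 2659.5 in DMSO, 3554, 2898 and 3230.5 at 0.1 µM and 2566, 3809.9 and 3139 at 1.0 µM, and a log2 change of 0.35 (adjusted p = 0.0848) at 1.0 µM and 0.39 (adjusted p = 0.0897) at 0.1 µM. One 1.0 µM array of HEXA lay within the DMSO range, and neither dose passed the test. HEXA was called higher at 1.0 µM without 1.0 µM replicate 1 (0.50, adjusted p = 0.0205), and at 0.1 µM without 1.0 µM replicate 2 (0.39, adjusted p = 0.0338). GAA, the acid glucosidase that breaks down glycogen, gave 0.33 (adjusted p = 0.114) at 1.0 µM, with 0.46 (adjusted p = 0.0274) without DMSO replicate 3, and GLA, the alpha-galactosidase, gave -0.07 (adjusted p = 0.768).

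V-ATPase genes held 1 fall at 1.0 µM, and 3 were not called. ATP6V1A codes for the subunit that hydrolyses ATP. It had 5513, 5064 and 4979 in DMSO, 4420.4, 4702 and 4249 at 0.1 µM and 4366, 4110.3 and 4298 at 1.0 µM, every treated array being below every DMSO array. The log2 change was -0.28 ± 0.09 (adjusted p = 0.0345) at 1.0 µM and -0.22 (adjusted p = 0.135) at 0.1 µM. The call at 1.0 µM ended without DMSO replicate 1, DMSO replicate 2, 0.1 µM replicate 1, 0.1 µM replicate 3, 1.0 µM replicate 1, 1.0 µM replicate 2 or 1.0 µM replicate 3, with log2 changes of -0.30 to -0.24 and adjusted p-values of 0.0514 to 0.125. In the fit over all probe sets, neither of the 2 ATP6V1A probe sets was called at 1.0 µM. This probe set had an adjusted p of 0.0509 there, and the second had -0.38 (adjusted p = 0.0581), with every 1.0 µM array below DMSO. The others had log2 changes at 1.0 µM of -0.07 (adjusted p = 0.694) for ATP6V0D1, 0.15 (adjusted p = 0.413) for ATP6V1H and -0.11 (adjusted p = 0.546) for the accessory subunit ATP6AP1.

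The 2 doses were compared directly as well. Between 1.0 µM and 0.1 µM, 0 of the 39 genes passed the test by limma, and an unadjusted p under 0.05 was met by 4 upward and 2 downward. Of all tested genes 0.817% differed between the doses, 0.387% upward and 0.43% downward. The median log2 difference of the 39 genes was -0.007. ATG7 had the smallest adjusted p of the list, with a log2 difference of 0.47 ± 0.13 (adjusted p = 0.123) and a 95% interval of 0.20 to 0.75. For UVRAG the difference was 0.34 (adjusted p = 0.174), with an interval of 0.12 to 0.55, and for CTSL it was 0.28 (adjusted p = 0.359), with an interval of 0.02 to 0.54. These 3 genes had their 1.0 µM arrays above all 0.1 µM arrays, and each interval lies above 0 before adjustment. ATG5 and GLA also had their 1.0 µM arrays above all 0.1 µM arrays. The ATG5 difference was 0.22 (adjusted p = 0.39), with an interval of 0.006 to 0.433, and the GLA interval was -0.071 to 0.465. The share of all tested genes without overlap between the doses is not given here.

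For the 5 genes called at both doses the intervals include 0. They were -0.29 to 0.50 for SQSTM1, -0.10 to 0.43 for MAP1LC3B, -0.54 to 0.39 for ULK1, -0.26 to 0.24 for TFE3 and -0.41 to 0.11 for NEU1. So a difference between the doses of up to 0.50 for SQSTM1 and 0.43 for MAP1LC3B on the log2 scale lies within these intervals, and a lack of calls does not show equal levels. CTSZ had an interval of -0.83 to -0.003, CTSB one of -0.36 to 0.18 and GABARAPL2 one of -0.38 to 0.09.

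Several probe sets were tested for 22 of the 39 genes, and 17 genes had 1. At 1.0 µM every probe set was called the same way in 3 genes (SQSTM1, MAP1LC3B and WIPI1), some but not all were called in 5 (ATG7, CTSB, GABARAPL1, MITF and TFE3), and none in 14. Those 14 include ATP6V1A, which was called lower only in the fit over genes. In 0 genes were probe sets called in opposite directions, at either dose. Of 84 probe sets that passed the filter, 19 were called higher and 6 lower at 1.0 µM, and 10 higher and 4 lower at 0.1 µM. The share called among all probe sets of the same fit is not given here. Whether these counts exceed it was not tested. At 0.1 µM the genes with some but not all probe sets called were ATG7, CTSB, MITF, SQSTM1 and WIPI1.

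The arrays were also split by the level of the spiked-in controls. The set of 5 arrays with lower control signal holds 2 DMSO, 1 at 0.1 µM and 2 at 1.0 µM, and the set of 4 with higher control signal holds 1 DMSO, 2 at 0.1 µM and 1 at 1.0 µM. In the higher set the change at 1.0 µM is therefore a difference of 2 single arrays and is given as a value only. For SQSTM1 the log2 change at 1.0 µM was 0.83 (adjusted p = 0.00248) in the lower set and 1.31 in the higher set. In the lower set ULK1 (0.59, adjusted p = 0.138), UVRAG (0.33, 0.118), TFE3 (0.36, 0.137), MCOLN1 (0.35, 0.138) and ATP6V1A (-0.27, 0.0819) were not called. In the higher set the values were 0.96 for ULK1, 0.58 for UVRAG, 0.47 for TFE3, 0.94 for MCOLN1, 0.17 for WIPI1, -0.32 for CTSB, -0.40 for CTSZ and -0.30 for ATP6V1A. At 0.1 µM, none of the 5 rises was called within the lower set, where a single 0.1 µM array stands against 2 DMSO arrays and its spread is assumed to be that of the other groups. SQSTM1 had 0.56 (adjusted p = 0.0795) and NEU1 had 0.68 (adjusted p = 0.0722) there.

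Beyond the 39 genes, 165 further genes of the same pathways were listed, of which 148 were tested, with 26 rises (17.6%) and 14 falls (9.46%) at 1.0 µM and 15 rises (10.1%) and 3 falls (2.03%) at 0.1 µM. Over all tested genes these shares were 12.3% and 11.0% at 1.0 µM and 6.89% and 5.11% at 0.1 µM, and no test set the lists against them. These lists too were chosen with earlier results of these data known. Of these calls, 21 of 40 at 1.0 µM and 7 of 18 at 0.1 µM ended when some single array was left out. Between the doses 0 of the 148 were called by limma, and an unadjusted p under 0.05 was met by 12 upward and 11 downward. Other autophagy genes had 10 rises and 3 falls among 38 tested at 1.0 µM (median 0.10), and 5 rises and 1 fall at 0.1 µM. WDR45, a relative of the WIPI proteins, had 1710.2, 1648 and 1963 in DMSO, 3075, 2904 and 3032 at 0.1 µM and 3081, 3752 and 3282 at 1.0 µM, with a log2 change of 0.92 ± 0.10 (adjusted p = 4.41e-05) at 1.0 µM and 0.76 (adjusted p = 0.000409) at 0.1 µM. All its treated arrays were above DMSO. TMEM41B, a lipid scramblase needed for autophagosome growth, had a log2 change of 0.87 ± 0.10 (adjusted p = 5.14e-05) at 1.0 µM and 0.64 (adjusted p = 0.000961) at 0.1 µM. RUBCN, which restrains the UVRAG complex, had one of 1.00 ± 0.13 (adjusted p = 0.000201), although its 3 probe sets ranged from -0.15 to 1.00, and the cargo receptor OPTN had one of 0.70 ± 0.12 (adjusted p = 0.00137). The 3 falls, named after their values were seen, were MAP1LC3C, VAMP8 and BNIP3, with log2 changes of -0.93, -0.41 and -0.34, and each call ended without some single array. MAP1LC3C had -0.88 (adjusted p = 0.0516) without DMSO replicate 1, VAMP8 had -0.35 (adjusted p = 0.0637) without 1.0 µM replicate 1, and BNIP3 had -0.29 (adjusted p = 0.108) without 1.0 µM replicate 3.

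Other lysosomal hydrolases and their cofactors had 1 rise (3.12%) and 8 falls (25.0%) among 32 tested at 1.0 µM (median -0.09), beside 12.3% and 11.0% over all tested genes, and 2 rises and 2 falls at 0.1 µM. Of the 8 falls, CTSC, CTSF, GALC, GALNS and SMPD1 each ended when some single array was left out. CTSV, a cysteine protease close to CTSL, had 2539.9, 2754 and 2313 in DMSO, 1688, 1698 and 1573 at 0.1 µM and 1263, 1259 and 1374 at 1.0 µM, with a log2 change of -0.95 ± 0.09 (adjusted p = 1.68e-05) at 1.0 µM and -0.61 (adjusted p = 0.00104) at 0.1 µM. Its 3 groups did not overlap. CTSH, an aminopeptidase, fell by 0.76 ± 0.10 on the log2 scale at 1.0 µM (adjusted p = 0.000131), and had -0.51 (adjusted p = 0.00456) at 0.1 µM. The GM2 activator GM2A had -0.47 (adjusted p = 0.00736) and the galactosylceramidase GALC -0.34 (adjusted p = 0.0167) at 1.0 µM. Without 1.0 µM replicate 3 the GALC change was -0.30 (adjusted p = 0.0799), and its call also ended without DMSO replicate 1 or 1.0 µM replicate 1. The single rise, TPP1, had 0.35 (adjusted p = 0.0246) and ended without DMSO replicate 1 (0.32, adjusted p = 0.0864), without DMSO replicate 2, or without 1.0 µM replicates 2 or 3.

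With the cathepsins of both lists put together, a grouping made after their values were seen, 1 of 12 rose at 1.0 µM (CTSL), 6 fell (CTSB, CTSZ, CTSV, CTSH, CTSC and CTSF) and 5 were not called (CTSA, CTSD, CTSS, CTSK and CTSO), where 12.3% of all tested genes rose and 11.0% fell. The calls of CTSB, CTSZ, CTSC and CTSF each ended on leaving out some single array. At 0.1 µM CTSV and CTSH fell and 10 were not called. CTSC had -0.35 (adjusted p = 0.0215) and CTSF -0.73 (adjusted p = 0.0265) at 1.0 µM. Without 1.0 µM replicate 3 CTSC had -0.30 (adjusted p = 0.1), and it also lost its call without DMSO replicate 1 or 2. Without 1.0 µM replicate 1 CTSF had -0.60 (adjusted p = 0.0981), and it also lost its call without DMSO replicate 2 or 3.

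Other lysosomal membrane and sorting genes had 7 rises (25.0%) and 1 fall (3.57%) among 28 tested at 1.0 µM (median 0.27), beside 12.3% and 11.0% over all tested genes. Of these 8 calls, 5 ended without some single array. At 0.1 µM there were 3 rises (10.7%) and 0 falls, beside 6.89% and 5.11%, and an unadjusted p under 0.05 was met by 7 upward and 0 downward. NPC1, which moves cholesterol out of lysosomes, had 2031, 2240.1 and 2257 in DMSO, 4788, 4027 and 5045 at 0.1 µM and 4412, 5894 and 4277 at 1.0 µM, with a log2 change of 1.14 ± 0.13 (adjusted p = 6.22e-05) at 1.0 µM and 1.08 (adjusted p = 0.000225) at 0.1 µM. All treated arrays were above DMSO by well over the spread within groups. CTNS, the cystine exporter, had a log2 change of 0.84 ± 0.15 (adjusted p = 0.00175) at 1.0 µM and 0.78 (adjusted p = 0.00557) at 0.1 µM, and SLC38A9, the arginine sensor of the lysosome, had one of 0.66 (adjusted p = 0.000377) at 1.0 µM. IGF2R, the receptor that sorts hydrolases to lysosomes, had 0.36 (adjusted p = 0.0276), and its call ended without DMSO replicate 2 (0.30, adjusted p = 0.104), DMSO replicate 1, or 1.0 µM replicates 1 or 3. LAPTM4B, the one fall, had -0.32 (adjusted p = 0.0456), and 7 of the 9 arrays ended its call when left out, with -0.25 (adjusted p = 0.159) without DMSO replicate 2. Other V-ATPase genes had 2 rises (12.5%) and 0 falls among 16 tested at 1.0 µM (median 0.16), beside 12.3% and 11.0% over all tested genes. An unadjusted p under 0.05 was met by 4 upward and 1 downward. The rises were ATP6V0A2 with 0.55 (adjusted p = 0.000738) and ATP6V1C1 with 0.44 (adjusted p = 0.00521). Neither was called when the probe sets of a gene were averaged (adjusted p = 0.0677 and 0.22), and SLC38A9 then had an adjusted p of 0.191.

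Genes through which the lysosome controls mTORC1 and TFEB had 6 rises and 2 falls among 34 tested at 1.0 µM (median 0.09), a share called of 23.5% beside 23.2% over all tested genes, and 5 rises and 0 falls at 0.1 µM, where an unadjusted p under 0.05 was met by 6 upward and 0 downward. SESN2, a leucine sensor that restrains mTORC1, had 398, 621 and 474 in DMSO, 1244, 1094 and 1574 at 0.1 µM and 1547, 1936 and 1616 at 1.0 µM, with a log2 change of 1.76 ± 0.17 (adjusted p = 1.64e-05) at 1.0 µM and 1.37 (adjusted p = 0.000252) at 0.1 µM. CASTOR1, an arginine sensor that restrains mTORC1, had 212, 272 and 257 in DMSO, 598, 516 and 589 at 0.1 µM and 700.3, 739.5 and 667 at 1.0 µM, with 1.46 ± 0.12 (adjusted p = 6.93e-06) at 1.0 µM and 1.16 (adjusted p = 9.15e-05) at 0.1 µM. For both genes all treated arrays were above all DMSO arrays. RRAGC, a GTPase that recruits mTORC1 to the lysosome, rose, with a log2 change of 0.59 (adjusted p = 0.00206) at 1.0 µM. The falls were LAMTOR5, part of the platform that holds it there, with -0.39 (adjusted p = 0.01), and SESN1, with -0.36 (adjusted p = 0.0498), whose call ended on leaving out any of 8 arrays (-0.31, adjusted p = 0.162, without 1.0 µM replicate 3).

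**Figure D4:**
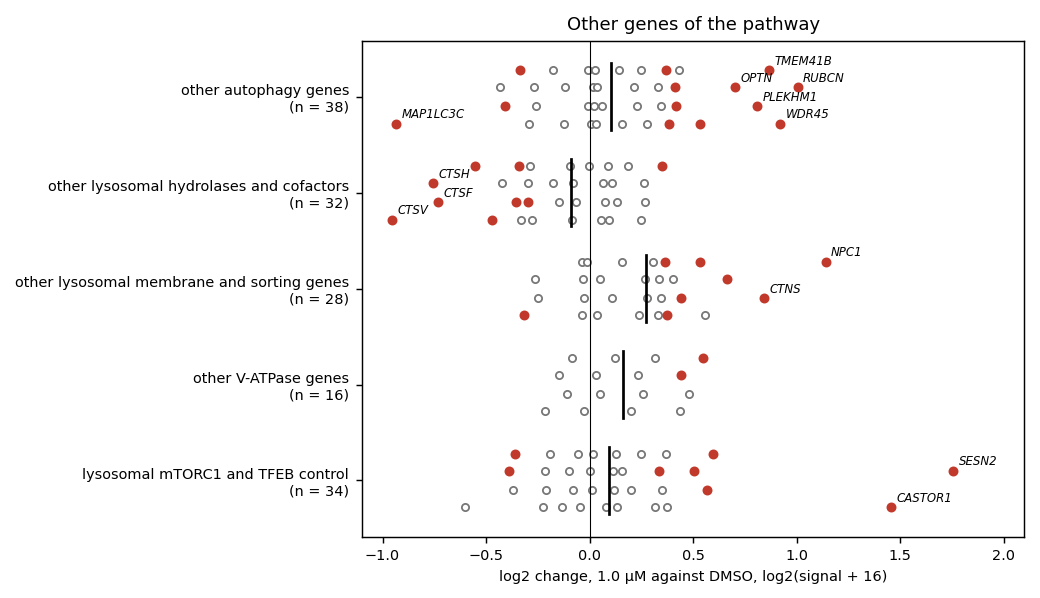
Log2 change at 1.0 µM against DMSO of the 148 tested further genes, by list, with filled points for adjusted p under 0.05 and a black bar at each list's median. The hydrolases have their median at -0.09 and 8 falls, and the membrane and sorting genes have theirs at 0.27 and 7 rises.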

How the data were processed

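RNA from 9 PANC-1 samples was hybridised to 9 single-colour HG-U133 Plus 2.0 arrays. The authors deposited intensity values per probe set (MAS5 signals, per the submitters' processing notes, on a linear scale), and other processing steps are not given in the sources used here. From these intensities, log2(signal + 16) was computed. Control probe sets and those with a mean at or below the 40th percentile (a signal of 38.95) were left out, 32768 remained, and the probe set with the highest mean stood for each of 13948 genes. Of 54675 probe sets, 41091 were annotated to 1 gene, 1801 to several and 11721 to none. limma 3.58.1 in R 4.3.3 fitted all 9 arrays (lmFit, eBayes with intensity trend), with Benjamini-Hochberg adjustment over all genes, and a second fit tested all 32768 probe sets. With 3 arrays a group and 6 residual degrees of freedom, the number of arrays limits the precision. The script was tested on simulated data. Tables and figures used Python 3.11.15, pandas 2.3.3 and matplotlib 3.10.9.

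The members and lists were chosen with earlier results of these data known. Genes given on every array were those called at either dose or with some probe sets called, and NBR1, ATG5, TFEB, CTSD, CTSS and HEXA, added after their values were seen. Named were also from each further list up to 4 called genes of smallest p at 1.0 µM and up to 2 at 0.1 µM. A total of 26 alternatives were run, covering the added constant, filter, normalization, probe set rule, variance model, arrays left out, the spiked-in controls and the call rule. Protein sequences were not used here.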

Additional observations from a re-analysis of the deposited data

How the results depend on the processing

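With every alternative except the rule that adds a fold of 1.5, 6 of the 14 calls at 1.0 µM were kept (SQSTM1, MAP1LC3B, GABARAPL2, ATG7, CTSL and NEU1) and 8 were lost under at least 1, while 0 of the 5 calls at 0.1 µM were kept under all of them. The count of rises at 1.0 µM, 10 as reported, was 12 with the spike set as a block, 11 with quantile normalization, averaged probe sets or array weights, 9 with the 6 arrays compared, 8 with no filter, 7 with median centring or the replicate block, 6 without the intensity trend, 6 in the lower spike set only, 5 with a fold of 1.5, and 6 to 10 when arrays were left out one at a time. No count at 1.0 µM is given for the higher spike set, which holds 1 DMSO and 1 array at 1.0 µM. The count of falls at 1.0 µM, 4 as reported, was 6 with the spike set as a block, 5 with quantile normalization, averaged probe sets, array weights or the lower spike set only, 3 with the 6 arrays compared, 2 with no filter, 2 with median centring, 1 with every probe set tested, 1 without the trend, 0 with a fold of 1.5, and 1 to 5 when arrays were left out. Whether the replicate numbers pair the samples could not be decided from so few arrays. Deviations from group means had correlations of 0.217, 0.038 and -0.081 between same-numbered arrays of 1.0 µM and DMSO. Between differently numbered arrays they ran from -0.265 to 0.197. With the replicate number as a block, 2 genes fell at 1.0 µM, and the all-gene calls were 2550, 1137 and 23 for 1.0 µM, 0.1 µM and the dose difference, beside 3240, 1674 and 114 without the block. The count of rises at 0.1 µM, 5 as reported, was 6 with quantile normalization, averaged probe sets or the 6 arrays compared, 4 with median centring, every probe set tested or the replicate block, 3 with no filter, 3 without the trend, 8 with array weights, 0 with the lower spike arrays alone and 8 with the higher spike set only, 3 with a fold of 1.5, and 2 to 6 when arrays were left out. The count of falls at 0.1 µM, 0 as reported, was 1 with quantile normalization, 1 with averaged probe sets, 3 with array weights, 3 with the spike set as a block, 4 in the higher spike set only, and 0 to 1 when arrays were left out. Array weights gave 4 higher and 2 lower genes between the doses, where 0 were reported. ATG9A turned to 0.54 at 1.0 µM in the higher spike set only, a difference of 2 single arrays, beside -0.02 over all arrays, and the cause was not tested. Of genes reported as not called at 1.0 µM, TFEB and LAMP2 were called lower under 5 alternatives each. ATG5 and GAA were called higher under 2 each and GABARAPL1 under 1. HEXA was called higher with array weights, with the spike set as a block and without 1.0 µM replicate 1. In the higher spike set only, a difference of 2 single arrays, the values were 0.605 for ATG4A, 0.53 for CTSD and 0.628 for HEXA. Over the alternatives without the fold rule, other autophagy genes had 7 to 15 rises and 0 to 4 falls at 1.0 µM, other hydrolases 0 to 3 and 3 to 12, other membrane genes 3 to 11 and 0 to 2, other V-ATPase genes 2 to 5 and 0 to 1, and mTORC1 control genes 4 to 8 and 1 to 3. At 0.1 µM the rises and falls were 1 to 7 and 0 to 3, 0 to 3 and 0 to 2, 2 to 5 and 0 to 1, 0 to 1 and 0, and 2 to 8 and 0 to 1 in the same lists. These ranges include the fits within the spike sets, some with 1 array in a group. Array signals carry no read depth, and CTSS, with signals of 36.1 to 127.8 in DMSO, lay nearest to the filter.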
